A study of Mus musculus with 10 samples.

Results

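The peaks described here cover the major histocompatibility complex (MHC) on mouse chromosome 17, measured by ATAC-seq in purified intestinal epithelial cells (IECs). The deposited counts list peaks by gene ID without coordinates, and the running number of a peak follows the genome. The locus was taken as an unbroken run of that order with class II, class III and class I genes in it, which gave 381 of 246479 peaks, or 0.155%, assigned to 180 Ensembl gene IDs. They are called locus peaks 1 to 381 here, counted from the centromeric side. Cells came from 5 wild-type mice (WT1 to WT5, Zip14+/+, labelled as controls) and 5 global Zip14 knockout mice (KO6 to KO10, Zip14-/-). Zip14, or Slc39a14, is a plasma membrane transporter of zinc, and its deletion was present in all cells of the KO mice and not in epithelium alone. By the study's methods both genotypes came from crosses of heterozygous mice of a line backcrossed to C57BL/6, were young adults and were female unless stated otherwise, and the IECs were sorted by EpCAM from the first part of the small intestine. The labels give the tissue as duodenum, and give neither a batch nor a litter for any mouse.

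MHC class II molecules present peptides from outside the cell to helper T cells and are made of an alpha and a beta chain, which H2-Aa and H2-Ab1 encode for I-A, while H2-Eb1 encodes the beta chain of I-E. H2-DMb1 encodes a chain of H2-DM, which helps to load peptides onto class II molecules. Class II genes are switched on by the transactivator CIITA, which binds no DNA itself and is held at class II promoters by factors on a conserved X box and Y box, and enterocytes of the small intestine are among the non-immune cells that can make class II. Class I molecules present peptides from inside the cell to cytotoxic T cells, and the telomeric side of the mouse locus holds many copies of class Ib genes of the H2-T group. The class III region between them holds genes of complement, of the tumour necrosis factor family and of heat shock proteins. ATAC-seq uses a transposase that cuts and tags DNA free of nucleosomes, so that the count of a peak rises with the accessibility of that stretch.

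The promoters of 3 class II genes with peaks in the locus are shown because the X and Y boxes in them are where the class II machinery assembles. RefSeq holds a promoter for H2-DMb1, H2-Aa and H2-Eb1 on GRCm38.p6, the same assembly as mm10, the build named in the submitters' processing notes, and H2-Ab1 was missing from that table. The 250 bases before the start of each gene lie at chr17:34152941-34153190 on the plus strand for H2-DMb1, at chr17:34287824-34288073 on the minus strand for H2-Aa and at chr17:34305617-34305866 on the plus strand for H2-Eb1. They are printed 5′ to 3′ on the strand of the gene, with matches to AACNGATG, the core of the X box, and to TGATTGG, the core of the Y box, in capitals. These letters were chosen with the sequences in view, and both strands were searched.
H2-DMb1: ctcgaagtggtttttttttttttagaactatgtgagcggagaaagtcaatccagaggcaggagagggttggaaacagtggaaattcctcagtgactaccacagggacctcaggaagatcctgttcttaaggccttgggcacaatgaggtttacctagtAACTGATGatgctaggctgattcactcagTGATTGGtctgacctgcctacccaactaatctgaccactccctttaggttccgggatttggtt
H2-Aa: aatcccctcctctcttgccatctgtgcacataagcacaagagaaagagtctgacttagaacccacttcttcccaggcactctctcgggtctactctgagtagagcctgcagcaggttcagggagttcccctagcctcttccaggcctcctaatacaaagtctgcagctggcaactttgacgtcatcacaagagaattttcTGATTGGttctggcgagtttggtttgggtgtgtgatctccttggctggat
H2-Eb1: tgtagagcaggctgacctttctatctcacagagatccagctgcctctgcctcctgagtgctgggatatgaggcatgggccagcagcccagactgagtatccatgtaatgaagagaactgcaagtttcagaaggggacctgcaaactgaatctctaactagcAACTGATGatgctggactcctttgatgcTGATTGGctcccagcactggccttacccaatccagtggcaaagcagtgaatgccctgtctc
H2-DMb1 and H2-Eb1 held both motifs in the same order, with 21 bases between them in H2-DMb1 and 20 bases in H2-Eb1. The Y box match started 63 bases before the gene start in H2-DMb1, 61 bases before it in H2-Eb1 and 50 bases before it in H2-Aa, and in H2-Aa no match to the X box letters was found in this window. Among 32851 RefSeq promoters of the same length, 1.98% held the X box letters, 7.23% the Y box letters and 0.146% both. A match is a description of the sequence, and which peak covers it is not known, since the peaks carry no coordinates.

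Total counts were between 5202949 and 15775481 in WT mice and between 4731176 and 6094983 in KO mice, and the lower depth of the KO mice widens the counting error of their weak peaks. As a look at the genotype that was chosen for its pattern, and so is no independent check, 1 peak in the whole data held no count in any KO mouse (0 counts, which allows up to 3) while each WT mouse had 5 or more. It belonged to ENSMUSG00000022094, had 17, 8, 21, 11 and 16 counts in WT1 to WT5, and lay between peaks of Stc1 and Rps2-ps6, genes that flank the region with Slc39a14 in RefSeq. Slc39a14 itself, and the markers of enterocytes, leukocytes, endothelium and stroma, could not be matched to a gene ID here, so the cell type was not checked against its markers. Symbols could be paired with 9 of the 180 gene IDs and with 27 of the 381 peaks. The remaining IDs are described by their place between named genes.

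The 9 named genes split the locus into 5 stretches. The stretch before H2-DMb1 held 29 peaks, and RefSeq places H2-K1, a classical class I gene, and H2-DMa, H2-DMb2 and H2-Oa, which encode class II chaperone chains, in the 372 kb between Angptl4 and H2-DMb1. From H2-DMb1 to H2-Eb1 there were 34 peaks in 163 kb, a stretch that also holds the proteasome genes Psmb8 and Psmb9 and the peptide transporter genes Tap1 and Tap2. Between H2-Eb1 and Cdsn, the corneodesmosin gene, 193 peaks fell in 1226 kb with 116 RefSeq genes, among them the butyrophilin-like, complement and tumour necrosis factor genes, H2-D1 and the H2-Q genes. From Cdsn to the peak before H2-T27 there were 93 peaks, and from H2-T27, a class Ib gene, to the end of the locus 32 peaks. The last stretch held peaks of H2-T27, Gm8810, H2-Bl and H2-T25, of which Gm8810 and H2-Bl are annotated as pseudogenes. H2-Bl is printed as H2-B1 in the study's list of names and was read as H2-Bl through its RefSeq synonym.

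The locus was rich in strong peaks. Of the 381 peaks, 114 (29.9%) were among the strongest 10% of all peaks by mean CPM, the count scaled to a common library size with TMM factors, and the median locus peak stood at percentile 77.1. The strongest was locus peak 116, between H2-Eb1 and Cdsn, with a mean of 138 CPM. H2-Bl followed with 95.9 CPM over all 10 mice at its single peak, then locus peak 26 before H2-DMb1 with 88.3 CPM, locus peak 378 near the telomeric end with 76.9 CPM and locus peak 219 with 60.3 CPM. The 10 strongest peaks together held 21.1% of the counts of the locus. The peaks of class II genes were weaker. The strongest peak of H2-Aa had 12.8 CPM, that of H2-Eb1 7.23 CPM, that of H2-Ab1 6.26 CPM and that of H2-DMb1 4.88 CPM. At the other end, 41 locus peaks had 0 counts in at least 1 mouse, where the same limit applies.

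**Figure D1:**
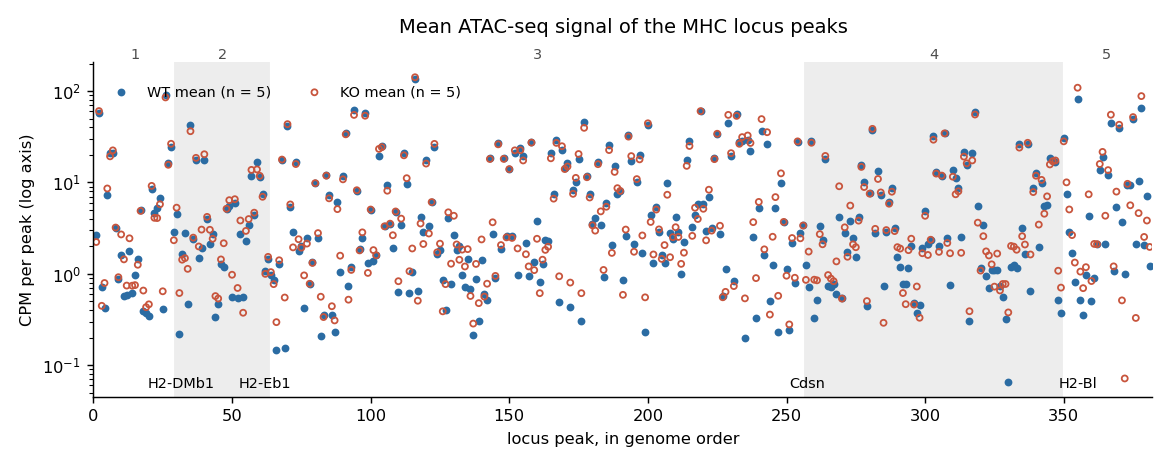
Mean CPM of each of the 381 locus peaks in genome order, on a log axis, with filled points for WT and open points for KO mice (5 mice each); shading and the numbers 1 to 5 mark the stretches before H2-DMb1, from H2-DMb1 to H2-Eb1, from H2-Eb1 to Cdsn, from Cdsn to H2-T27 and from H2-T27 to the end. Points of both genotypes lie close together at most strong peaks and farther apart at weak ones and at the telomeric end, and the strongest peak, with a mean of 138 CPM, lies between H2-Eb1 and Cdsn.

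The locus took 0.363%, 0.357%, 0.365%, 0.305% and 0.377% of all counts in WT1 to WT5, and 0.329%, 0.341%, 0.339%, 0.343% and 0.357% in KO6 to KO10. The share in WT4 was the lowest of all 10 mice. The other WT mice were above the highest KO mouse, though WT2 (0.3572%) and KO10 (0.3567%) nearly tied. These are shares of raw totals. Scaling by total counts gave a median log2 fold change (KO over WT) of -0.11 in the locus and -0.10 over all tested peaks. The stretch from H2-DMb1 to H2-Eb1 took between 4.44% and 6.46% of the counts of the locus in WT mice and between 4.64% and 6.03% in KO mice, so the genotypes overlapped. The stretch from H2-T27 to the end took 12.8%, 14.8%, 14.5%, 10.1% and 10.6% in WT1 to WT5 and 14.5%, 14.7%, 15.0%, 12.6% and 14.7% in KO6 to KO10. WT4 and WT5 had the lowest shares there, and KO9 and WT1 the next lowest.

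Whether the loss of Zip14 changed accessibility in the locus was tested with edgeR across all peaks. Of the 381 peaks, 255 passed the filter on low counts (66.9%, beside 32.9% of all peaks). At an unadjusted p under 0.05, 21 of them (8.24%) were higher and 18 (7.06%) lower in KO mice, beside 10.4% higher and 5.66% lower among all 81022 peaks tested. With this filter and all mice, no locus peak passed an adjusted p of 0.05 with edgeR, where the lowest was 0.0812. None did among all peaks (0%), while DESeq2 called 1 locus peak, beside 0.681% of all peaks. Without WT2, edgeR called 4 locus peaks, beside 2.21% of all peaks. With at least 10 counts in every mouse it called 1 (0.538%), beside 1.53% of all peaks. With no filter it called 6 (1.57%), beside 0.16% of all peaks. All of the 6 but locus peak 269 lay near the telomeric end, at peaks where the order of the mice, described below, cut across the genotypes. All KO mice lay above all WT mice at 4 locus peaks and below them at 3, where the shares among all peaks tested were 1.84% and 1.21%. The median log2 fold change of the locus peaks (KO over WT) was -0.01, with a range from -1.20 to 1.18. A difference of 2-fold or more was seen at 4 of 255 locus peaks, beside 1471 of all 81022 peaks tested, a similar share. A peak count from sorted cells does not tell fewer cells with an open site from less accessibility per cell.

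Along the chromosome the calls were spread over all 5 stretches. Before H2-DMb1, 1 of 17 tested peaks was higher and 0 lower at an unadjusted p under 0.05, with a median log2 fold change of -0.02. From H2-DMb1 to H2-Eb1, 2 of 23 were higher and 2 lower, with a median of 0.11. Between H2-Eb1 and Cdsn, 11 of 135 were higher and 7 lower, with a median of -0.02. From Cdsn to H2-T27, 3 of 59 were higher and 6 lower, with a median of -0.07. From H2-T27 to the end, 4 of 21 were higher and 3 lower, with a median of 0.22, and 17 of the 21 had a log2 fold change above 0, beside 40189 of all 81022 peaks tested. Without WT4 and WT5, 12 of 23 tested peaks of this last stretch were above 0, with a median of 0.02.

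**Figure D2:**
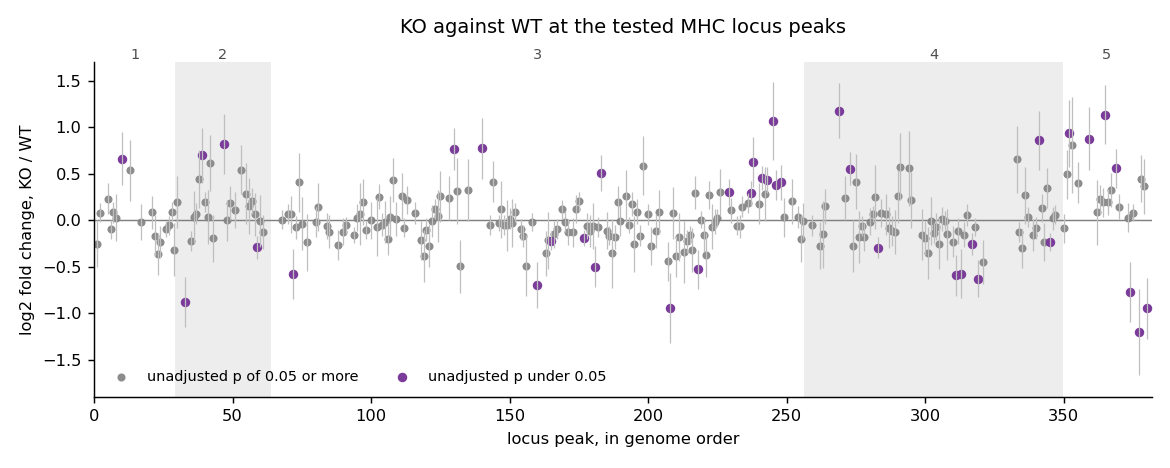
Log2 fold change of KO over WT mice at the 255 tested locus peaks in genome order, with standard errors as bars and peaks at an unadjusted p under 0.05 in purple; shading and numbers mark the 5 stretches. Most points lie near 0, and the lowest point lies at the telomeric end beside points above 0, from -1.20 at locus peak 377 to 1.14 at locus peak 365.

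Of the 9 class II genes listed for the locus, 4 could be matched to an ID, and 0 of them rose or fell at an unadjusted p under 0.05, beside 15.7% higher and 11.8% lower among all gene IDs, so that 0 of 4 is near the background. Summed over its 6 peaks, H2-Aa (chr17:34282744-34287823) had 29.8, 22.9, 24.2, 23.5 and 29.6 CPM in WT1 to WT5 and 35.6, 23.0, 21.7, 29.7 and 32.8 CPM in KO6 to KO10. The KO mice spread over a wider range than the WT mice and overlapped them, with a log2 fold change of 0.13 ± 0.13 (standard error) and an adjusted p of 0.546. H2-Ab1 (chr17:34263227-34269418), its partner chain, had 17.7, 14.8, 16.4, 20.5 and 21.5 CPM in WT mice and 18.1, 20.2, 14.0, 19.7 and 23.9 CPM in KO mice over 5 peaks. The lowest and the highest of these values both belonged to KO mice, and the log2 fold change was 0.06 ± 0.14 (adjusted p = 0.807).

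H2-Eb1 (chr17:34305867-34316674) had 10.8, 9.22, 8.54, 11.6 and 11.3 CPM in WT mice and 9.28, 7.98, 8.51, 10.8 and 9.48 CPM in KO mice over 3 peaks, and 2 KO mice lay below all WT mice. Its log2 fold change was -0.17 ± 0.14 (adjusted p = 0.436). H2-DMb1 (chr17:34153191-34160229) had 10.1, 5.41, 10.1, 11.5 and 10.02 CPM in WT mice and 10.1, 8.16, 6.34, 9.43 and 8.66 CPM in KO mice over 4 peaks. WT2 was far below the other WT mice, and the log2 fold change was -0.17 ± 0.18 (adjusted p = 0.551). Exact two-sided permutation tests of these sums, unadjusted, gave p = 0.421 for H2-Aa, 0.643 for H2-Ab1, 0.198 for H2-Eb1 and 0.484 for H2-DMb1. With 1 mouse left out, the log2 fold change of H2-DMb1 ran from -0.29 without WT2 (unadjusted p = 0.0727) to -0.075 without KO8, and that of H2-Aa from 0.029 without KO6 to 0.21 without KO8. That of H2-Ab1 ran from -0.032 without KO10 to 0.15 without KO8, and that of H2-Eb1 from -0.23 without WT3 to -0.12 without WT5. Without WT4 and WT5, the log2 fold change was 0.16 for H2-Aa, 0.22 for H2-Ab1, -0.04 for H2-Eb1 and -0.03 for H2-DMb1. With loess offsets it was 0.22 for H2-Aa, 0.10 for H2-Ab1, -0.25 for H2-Eb1 and -0.27 for H2-DMb1.

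**Figure D3:**
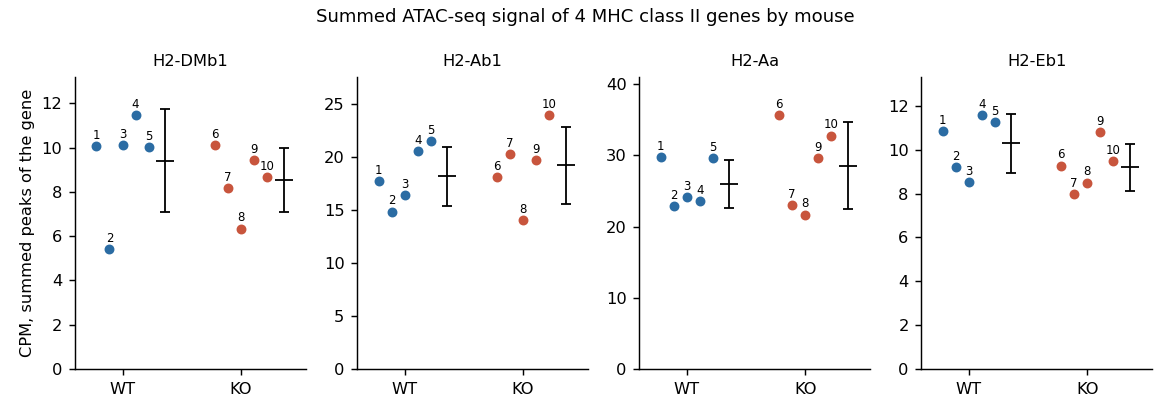
Summed CPM of the peaks of H2-DMb1, H2-Ab1, H2-Aa and H2-Eb1 in each mouse (points, numbered by mouse), with the mean and SD of 5 mice per genotype beside them. WT and KO points overlap for each of the 4 genes, and WT2 lies at 5.41 CPM for H2-DMb1.

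Within H2-Aa, 5 of 6 peaks passed the filter, with log2 fold changes of 0.54 ± 0.26, 0.28 ± 0.33, 0.15 ± 0.30, 0.21 ± 0.14 and 0.06 ± 0.23 in genome order. The lowest unadjusted p among them was 0.0541, at locus peak 53, where KO6 had 5.64 CPM and the WT mice between 1.68 and 3.63 CPM. Its unadjusted p fell under 0.05 with at least 10 counts in every mouse (0.0316) and without WT1 (0.0261), WT2 (0.0470), KO7 (0.0229) or KO8 (0.0494), and was 0.209 without KO6. With 1 mouse left out, the log2 fold change ran from 0.36 to 0.67 at locus peak 53, from 0.07 without KO10 to 0.50 without KO7 at locus peak 55, and from 0.11 without WT4 to 0.29 without KO8 at locus peak 57. The strongest, locus peak 57, had 11.8, 11.99, 13.3, 8.80 and 13.1 CPM in WT mice and 16.6, 13.0, 10.5, 13.7 and 14.8 CPM in KO mice. WT4 was the lowest and KO6 the highest at that peak. Within H2-Ab1, 3 of 5 peaks passed the filter, with log2 fold changes of -0.001 ± 0.22, 0.19 ± 0.18 and 0.11 ± 0.19. With 1 mouse left out, locus peak 49 ran from 0.09 without KO10 to 0.29 without KO8, and locus peak 51 from 0.02 without KO9 to 0.21 without WT4. KO and WT mice overlapped at each of these 8 peaks.

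A weaker peak assigned to H2-DMb1 differed without overlap. Locus peak 33, the peak of this gene nearest to the class II chain genes, had 2.07, 2.80, 2.68, 3.81 and 2.58 CPM in WT1 to WT5 and 1.41, 1.86, 1.51, 1.79 and 0.86 CPM in KO6 to KO10. All KO mice lay below all WT mice, with a log2 fold change of -0.88 ± 0.27 and an adjusted p of 0.121. The peak was named for this lack of overlap, which is given as a description. The stronger locus peak 30 of the same gene had a log2 fold change of 0.20 ± 0.28, and there WT2 had 1.60 CPM where the other WT mice had between 4.66 and 6.22 CPM. The other 2 peaks of H2-DMb1 did not pass the filter.

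Elsewhere in the locus, 4 other peaks at an unadjusted p under 0.05 had no overlap of the genotypes, 2 higher and 2 lower in KO mice, and none of their gene IDs has a symbol here. Another 2 peaks higher in every KO mouse did not reach that p. Locus peak 130, between H2-Eb1 and Cdsn, had 2.33, 3.596, 2.08, 3.33 and 1.85 CPM in WT mice and 4.05, 4.27, 4.01, 4.11 and 5.13 CPM in KO mice. The KO values were nearly level apart from KO10, and the log2 fold change was 0.76 ± 0.23 (adjusted p = 0.113). Locus peak 273, in the stretch after Cdsn, had 4.80, 3.197, 3.87, 3.33 and 3.70 CPM in WT mice and 5.99, 5.39, 4.85, 5.89 and 5.77 CPM in KO mice. WT1 and KO8 nearly met there, and the log2 fold change was 0.55 ± 0.18 (adjusted p = 0.134).

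Of those lower in KO mice, locus peak 283 had 13.0, 12.8, 13.1, 14.5 and 13.3 CPM in WT mice and 10.05, 11.7, 9.53, 10.9 and 12.4 CPM in KO mice. All WT mice were above the highest KO mouse, KO10, and the log2 fold change was -0.29 ± 0.12 (adjusted p = 0.221). Locus peak 177 was a strong peak, with 42.9, 46.0, 46.7, 45.4 and 46.0 CPM in WT mice and 42.3, 40.9, 41.8, 34.5 and 38.7 CPM in KO mice. The WT mice were tightly grouped at this peak and WT1 lay just above KO6, with a log2 fold change of -0.20 ± 0.09 (adjusted p = 0.270). Its unadjusted p rose above 0.05 with loess offsets (0.0766), with at least 10 counts in every mouse (0.0544), without WT4 and WT5 (0.0757) and without WT3, WT5, KO9 or KO10, where it was 0.101 without KO9. That of locus peak 283 did so with loess offsets (0.0654), without WT4 and WT5 (0.0822) and without KO8 (0.0596), and that of locus peak 273 with no filter (0.073).

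At the strongest peaks outside the telomeric end the genotypes overlapped. Locus peak 116 had 135 ± 24.6 CPM (SD, n = 5) in WT and 142 ± 9.52 CPM in KO mice, with a log2 fold change of 0.08 ± 0.12 (adjusted p = 0.792). Locus peak 26 had 91.2 ± 4.05 CPM (SD, n = 5) in WT and 85.3 ± 6.84 CPM in KO mice, and its change was -0.09 ± 0.09 (adjusted p = 0.633). That change was -0.18 with total counts and -0.25 with no filter (unadjusted p = 0.0280). With 1 mouse left out it ran from -0.14 without KO8 to -0.06 without KO10. For locus peak 219 the values were 60.2 ± 5.62 CPM (SD, n = 5) in WT and 60.3 ± 3.43 CPM in KO mice, a change of 0.004 ± 0.09 (adjusted p = 0.988). Cdsn, summed over 2 weak peaks, had between 1.002 and 2.90 CPM in WT and between 1.30 and 3.81 CPM in KO mice, and its change was 0.25 ± 0.32 (adjusted p = 0.632). With 1 mouse left out, that of Cdsn ran from 0.04 without KO6 to 0.46 without WT5, and it was 0.68 without WT4 and WT5. The sign for Cdsn flipped with loess offsets, and that for locus peaks 116 and 219 flipped with total counts, which moved the median of all tested peaks to -0.10.

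The lowest p of the locus was that of locus peak 269, chosen after its values were seen, which lies after Cdsn. It had 4.28, 7.19, 4.96, 1.19 and 3.36 CPM in WT mice and 13.2, 6.13, 6.86, 9.998 and 9.19 CPM in KO mice. WT2 lay inside the range of the KO mice and WT4 was the lowest, and the log2 fold change was 1.18 ± 0.30 (adjusted p = 0.0812). This was the locus peak that DESeq2 called, with a log2 fold change of 1.14 and an adjusted p of 0.0413, and without WT2 edgeR gave an adjusted p of 0.0286. Scaling by total counts gave an adjusted p of 0.111, loess offsets gave 0.109, and leaving out WT5 gave 0.223. The peak passed with at least 10 counts in every mouse (adjusted p = 0.0436) and with no filter (adjusted p = 0.0486). Without WT4 and WT5 the log2 fold change was 0.75 (adjusted p = 0.372).

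Counts were also summed over the peaks of each gene ID and tested over all 36715 gene IDs that passed the filter. Of 180 gene IDs of the locus, 160 were tested, and 11 were higher and 24 lower at an unadjusted p under 0.05, beside 15.7% and 11.8% of all gene IDs. At an adjusted p under 0.05, 2 were higher and 0 lower with edgeR, beside 2.9% and 1.01% of all gene IDs, and DESeq2 called 5 in all, beside 5.96% of all gene IDs. ENSMUSG00000090588, which has locus peak 269 and 4 more peaks, had 8.997, 11.8, 10.7, 5.67 and 8.42 CPM in WT mice and 19.7, 10.6, 12.2, 16.8 and 13.4 CPM in KO mice. KO7 lay inside the WT range, with a log2 fold change of 0.69 ± 0.19 (adjusted p = 0.0480). The adjusted p of this ID was 0.0231 with DESeq2 and 0.0436 with at least 10 counts in every mouse. It was 0.0554 with total counts and 0.0503 with no filter. With 1 mouse left out it was under 0.05 only without WT2 (0.0251) or KO7 (0.0327), and reached 0.132 without WT5.

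ENSMUSG00000092265, at the last locus peak and with 2 more peaks outside the locus, had 3.04, 3.81, 3.02, 1.09 and 1.96 CPM in WT mice and 4.97, 5.38, 4.50, 5.999 and 4.74 CPM in KO mice. All KO mice lay above all WT mice, WT4 and WT5 were the lowest, and the log2 fold change was 1.05 ± 0.26 (adjusted p = 0.0388). Its peak inside the locus did not pass the filter. With WT4 and WT5 left out, an alternative chosen after seeing the data, its log2 fold change was 0.66 (unadjusted p = 0.00895) and that of ENSMUSG00000090588 was 0.49 (unadjusted p = 0.0169), and edgeR then called 0 of 37646 gene IDs of the whole data at an adjusted p under 0.05. With loess offsets the adjusted p was 0.110 for ENSMUSG00000092265 and 0.0902 for ENSMUSG00000090588. With 1 mouse left out, that of ENSMUSG00000092265 ran from 0.0185 without WT2 to 0.125 without WT5. Of the 160 tested gene IDs, 1 lay higher in every KO mouse than in every WT mouse and 4 lay lower, beside 3.18% and 2.84% of all gene IDs tested. Those 4 had adjusted p of 0.0504, 0.0519, 0.0555 and 0.0735 and log2 fold changes of -0.61, -0.35, -0.28 and -0.24.

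At the telomeric end the mice differed in an order that cut across the genotypes. H2-Bl had 83.3, 122.5, 112.9, 42.0 and 54.1 CPM in WT1 to WT5 and 102.4, 116.3, 126.3, 78.4 and 121.2 CPM in KO6 to KO10 at its peak. WT4 and WT5 were the lowest, KO9 and WT1 came next, and the other 6 mice of both genotypes lay above 100 CPM. H2-T25, a class Ib gene, had 40.6, 64.7, 59.6, 27.4 and 31.1 CPM in WT mice and 56.9, 59.3, 53.0, 47.3 and 59.2 CPM in KO mice. Locus peak 378 had 64.7, 101.5, 96.7, 32.2 and 32.4 CPM in WT mice and 94.0, 90.7, 91.7, 65.2 and 99.4 CPM in KO mice. The order of the mice at both peaks was that of H2-Bl, with WT4 and WT5 lowest and WT1 and KO9 between them and the rest.

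Peaks among these had the opposite order. Locus peak 377, next to locus peak 378, had 11.7, 3.996, 2.18, 16.4 and 17.2 CPM in WT mice and 4.41, 2.97, 1.84, 9.998 and 3.85 CPM in KO mice. Locus peak 371 had 26, 4, 0, 58 and 128 counts in WT1 to WT5 and 1, 0, 1, 10 and 2 counts in KO6 to KO10. Locus peak 372 had 8, 0, 0, 19 and 31 counts in WT mice and 0, 0, 0, 2 and 0 counts in KO mice. WT4 and WT5 were the highest, WT1 and KO9 came next, and the other 6 mice were at or near 0 at locus peaks 371 and 372. Locus peak 375, between peaks of both kinds, had between 45.4 and 56.1 CPM in WT mice and between 48.7 and 56.5 CPM in KO mice, and was nearly level.

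**Figure D4:**
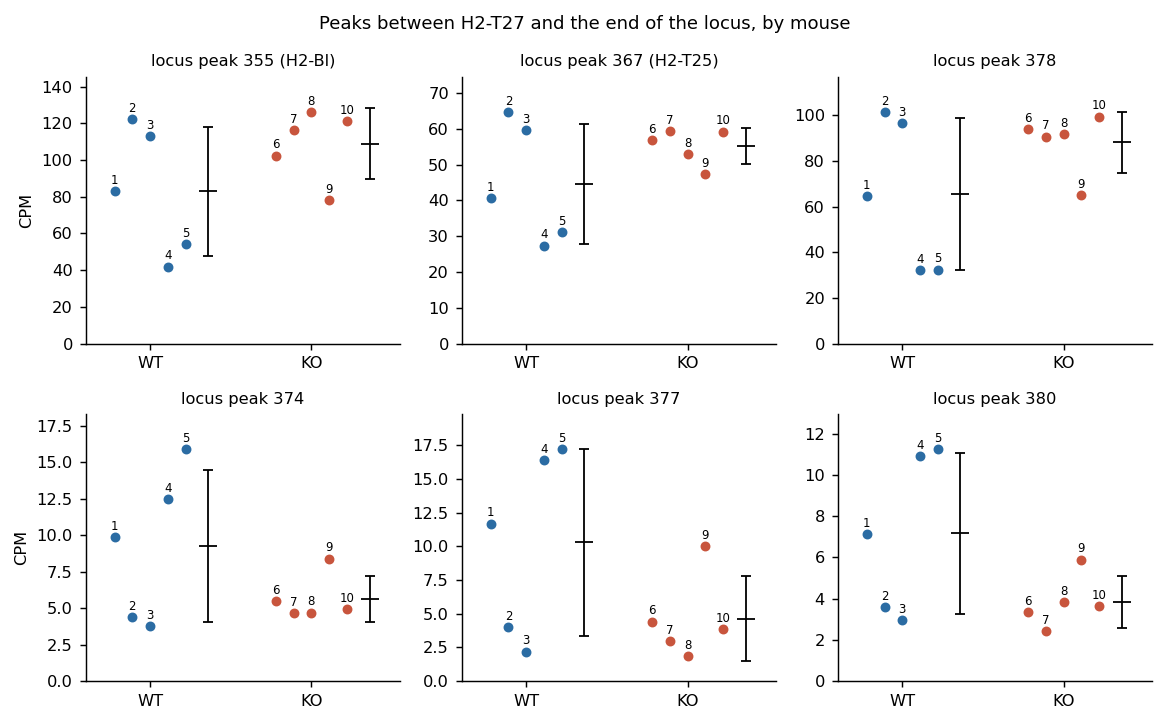
CPM in each mouse (points, numbered by mouse) at 6 peaks between H2-T27 and the end of the locus, with the mean and SD of 5 mice per genotype beside them. In the upper row WT4 and WT5 are lowest and in the lower row they are highest, and WT1 and KO9 lie between them and the other 6 mice in each panel.

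This order was counted over the peaks with at least 50 counts in all, as a pattern chosen after the values were seen and given without a test. From H2-T27 to the end, WT4 and WT5 were below all 8 other mice at 12 of 30 peaks (40%) and above them at 6 (20%), beside 5.69% and 3.41% of 146011 peaks of the whole data. WT1 and KO9 were also the next in order at 4 of the 12 and at all 6, beside 186 and 189 peaks of the whole data. The 12 peaks summed to 283, 400, 366, 160 and 178 CPM in WT1 to WT5 and to 357, 378, 375, 279 and 391 CPM in KO6 to KO10. The 6 peaks of the opposite order summed to 35.9, 13.0, 9.02, 52.2 and 57.6 CPM in WT mice and to 13.4, 10.03, 10.5, 27.9 and 13.0 CPM in KO mice. The other 12 peaks of the stretch summed to between 104 and 137 CPM in WT mice and between 123 and 139 CPM in KO mice, a narrower range.

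**Figure D5:**
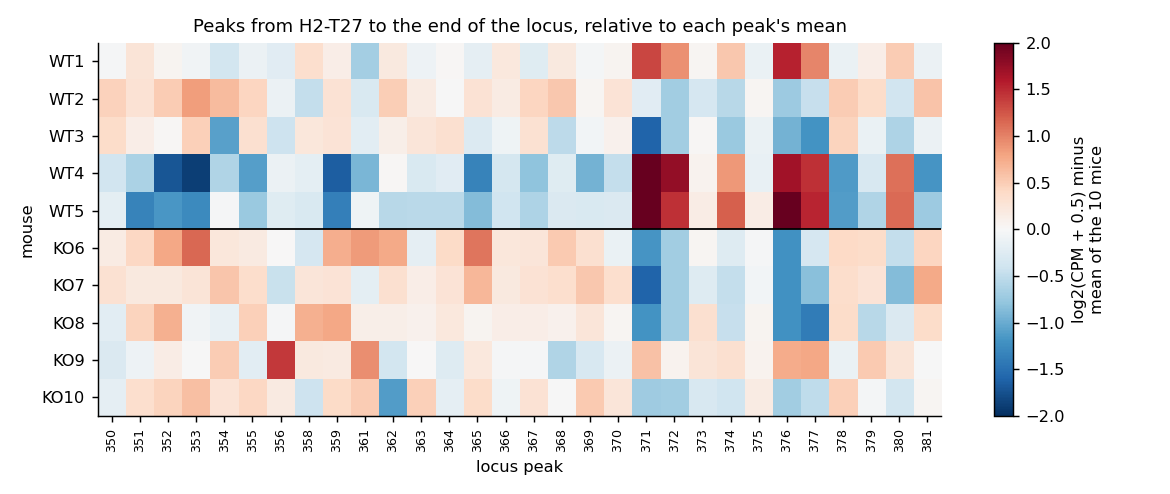
Log2(CPM + 0.5) of the 30 peaks from H2-T27 to the end of the locus with at least 50 counts, in genome order, as the difference from the mean of the 10 mice at each peak; rows are mice, with WT above the line and KO below it. WT4 and WT5 are blue at many peaks of the stretch and dark red at a few, such as locus peaks 371, 376 and 377, where WT1 and KO9 are lighter red and the other 6 mice blue.

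The values of the genotype comparison are given with and without WT4 and WT5. These mice were picked as the extreme WT mice at these peaks, so leaving them out moves the WT mean by construction. With both left out, 2 of 23 tested peaks were higher and 1 lower at an unadjusted p under 0.05, beside 6.73% and 3.35% of all peaks in that setting. H2-Bl had a log2 fold change of 0.40 ± 0.22 at its peak with all mice (adjusted p = 0.380) and 0.03 without both, H2-T25 had 0.32 ± 0.18 (adjusted p = 0.404) and then -0.005, and locus peak 378 had 0.44 ± 0.25 (adjusted p = 0.402) and then -0.0032. With 1 mouse left out, the H2-Bl peak ran from 0.23 without WT4 to 0.57 without WT2 (unadjusted p = 0.0143). The H2-T25 peak ran from 0.18 without WT4 to 0.47 without WT2 (unadjusted p = 0.0120). Locus peak 378 ran from 0.25 without WT5 to 0.64 without WT2 (unadjusted p = 0.0170). Locus peak 377 had -1.20 ± 0.46 (adjusted p = 0.204) and then -0.37. With no filter and all mice, locus peak 377 had -1.38 (adjusted p = 0.0340), locus peak 371 -3.07 (adjusted p = 0.0053) and locus peak 372 -3.79 (adjusted p = 0.0377). The gene sum that begins at locus peak 377 had -1.47 without WT2 (adjusted p = 0.0459). Gm8810, summed over 3 peaks, had a log2 fold change of 0.77 ± 0.34 (adjusted p = 0.151) and 0.21 without both mice, and it passed without WT2, with 1.07 (adjusted p = 0.0396). H2-T27, summed over 2 peaks, had -0.05 ± 0.15 (adjusted p = 0.851) and -0.29 without both (unadjusted p = 0.0298, adjusted p = 0.267). Class Ib genes of this stretch are near copies of each other, and how reads that fit several copies were handled is not given in the sources used here, so the values of single peaks are uncertain. Whether the mice differ in sequence in this stretch was not tested, and such a difference would change which reads are counted.

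Low values in WT4 and WT5 were also seen before Cdsn, where RefSeq places the H2-Q genes, in a window chosen after the values were seen. Among the last 32 peaks before Cdsn, 26 had at least 50 counts, and WT4 and WT5 were below all other mice at 9 of them (34.6%) and above them at 0. WT1 and KO9 were the next in order at 0 of these 9 peaks. Locus peak 241 had 37.6, 48.0, 39.2, 25.8 and 31.4 CPM in WT mice and 52.7, 47.2, 46.3, 43.6 and 57.1 CPM in KO mice. The log2 fold change there was 0.45 ± 0.13 (adjusted p = 0.111). WT2 lay inside the KO range, and without WT2 the adjusted p was 0.0328. From H2-DMb1 to H2-Eb1, WT4 and WT5 were below all other mice at 1 of 29 such peaks and above them at 2.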

How the data were processed

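ATAC-seq of purified IECs from 5 WT and 5 KO mice was analysed. The authors deposited raw counts per peak for a peak set common to all mice, and a normalized signal equal to the count divided by a factor per mouse, which was not used in tests. Reads were paired-end, and the build was mm10 per the labels. The aligner, peak caller, handling of duplicates and of the transposase offset, and the rule that assigned peaks to genes are not given in the sources used here, and how they shaped the counts could not be checked. Of 246501 entries, 22 were empty, and 594 peaks without a gene ID held between 0.612% and 0.965% of counts. Symbols came from 302 pairs of ID and symbol in the study's supplement.

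Peaks and gene sums were filtered with filterByExpr, normalized by TMM and tested with edgeR 4.0.16 (glmQLFit, glmQLFTest, R 4.3.3) in a model of genotype alone, with p-values adjusted over all features by Benjamini-Hochberg. The standard error was the log2 fold change divided by the root of F. CPM used library totals times TMM factors, set separately for peaks and gene sums. Class II gene sums were also compared by exact two-sided permutation over 252 labelings. The fit was checked on simulated counts. Errors of counts cover sampling only, and p-values measure the spread between these mice. Named were up to 10 locus peaks of lowest p in each direction without overlap at an unadjusted p under 0.05, a limit that neither direction reached. Also named were the 5 strongest peaks, the tested peaks of H2-Aa and H2-Ab1, and every named gene sum. The other gene lists and cell type markers could not be matched to IDs and gave no values. The members and lists were chosen with earlier results of these data known. Alternatives were DESeq2 1.42.0, total counts, loess offsets (span 0.3), no filter, at least 10 counts in every mouse, each mouse left out and, added after seeing the data, WT4 and WT5 left out.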

Additional observations from a re-analysis of the deposited data

Results flagged for a closer look

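Values were examined for a mouse far from the other 4 of its genotype, by the gap to the nearest mouse as a share of the range. Of 66 groups of 5 mice over 33 measures, 6 stood out, and chance alone flags about 1 in 20 groups. WT2 had 5.41 CPM summed over H2-DMb1, where the other WT mice had between 10.02 and 11.5 CPM. KO10 had 5.13 CPM at locus peak 130, where the other KO mice had between 4.01 and 4.27 CPM. KO9 had 65.2 CPM at locus peak 378, where the other KO mice had between 90.7 and 99.4 CPM. The locus took 0.305% of the counts of WT4 and between 0.357% and 0.377% in the other WT mice. The stretch between H2-Eb1 and Cdsn took 56.2% of the counts of the locus in WT5 and between 54.3% and 54.7% in the other WT mice. The stretch from H2-T27 to the end took 12.6% in KO9 and between 14.5% and 15.0% in the other KO mice.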

How the results depend on the processing

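No paired analysis was possible because mice 1 to 5 were WT and 6 to 10 KO, with no number in common. Against 21 locus peaks higher and 18 lower at an unadjusted p under 0.05, total counts gave 13 (5.1%, all peaks 7.2%) and 29 (11.4%, all peaks 11.8%). No filter gave 49 lower (12.9%, all peaks 7.09%), at least 10 counts in every mouse 9 lower (4.84%, all peaks 5.38%), and DESeq2 14 higher (5.49%, all peaks 7.99%) and 11 lower (4.31%, all peaks 4.36%). WT4 and WT5 left out gave 9 and 9 (3.4% each, all peaks 6.73% higher and 3.35% lower). Against 0 locus peaks at an adjusted p under 0.05, there were 6 without a filter (1.57%, all peaks 0.16%), of which 5 lay near the telomeric end. Those 5 were locus peaks 371, 372, 376, 377 and 380. At each of them WT4 and WT5 lay above the other 8 mice, with WT1 and KO9 next, an order that cut across the genotypes. There was 1 with at least 10 counts in every mouse (0.538%, all peaks 1.53%) and 1 with DESeq2 (0.392%, all peaks 0.681%). Against 2 gene IDs at an adjusted p under 0.05, there was 1 under total counts and under no filter, in both ENSMUSG00000092265. There was also 1 under loess offsets, a different ID that was lower in KO mice (-0.80). DESeq2 called 5, and WT4 and WT5 left out gave 0, as it did among all gene IDs. With each mouse left out, the higher peaks numbered 15 to 33, the lower 9 to 23, the adjusted peaks 0 to 4 and the adjusted gene IDs 0 to 14, and all of these highest counts came without WT2, where 1895 of 85778 peaks (2.21%) and 3326 of 37257 gene IDs (8.93%) of the whole data passed. Without WT3, WT5, KO6, KO9 or KO10 there were 0 adjusted calls among all gene IDs, so the 0 in the locus says nothing about its genes. Without WT4 the locus had 0 while 342 of 37229 gene IDs (0.919%) passed. The fewest lower peaks came without WT5 and the fewest higher without WT4. The median log2 fold change was -0.11 with total counts and with no filter, and between -0.02 and 0.01 with a mouse left out. The median of all tested peaks was -0.10 with total counts and 0.05 with no filter. The no-filter medians are taken over more peaks, 381 in the locus and 246479 in all. They therefore do not show how the peaks of the main fit moved. The cause of these shifts was not tested.

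Direction turned for these named results. Locus peak 48 of H2-Ab1 had 0.025 with at least 10 counts, 0.11 without WT4 and WT5 and -0.25 to 0.12 with a mouse left out, and locus peak 51 had -0.062 with no filter. Of H2-Aa, locus peak 56 had -0.033 with no filter and -0.078 to 0.35 with a mouse left out, and locus peak 58 had -0.039 with total counts, -0.11 with no filter and -0.13 to 0.17 with a mouse left out. Locus peak 116 had -0.010 with total counts, -0.075 with no filter, -0.086 without WT4 and WT5 and -0.018 to 0.16 with a mouse left out. Locus peak 219 had -0.088 with total counts, -0.15 with no filter, -0.0047 with DESeq2, -0.064 without WT4 and WT5 and -0.059 to 0.022 with a mouse left out. Without WT4 and WT5, locus peak 378 had -0.0032, and the sums of H2-Bl and H2-T25 had -0.032 and -0.065. With loess offsets Cdsn had -0.11 and H2-T27 0.060, and with a mouse left out H2-T27 had -0.15 to 0.055 and H2-Ab1 -0.032 to 0.15. Of the alternative values of named peaks and genes, 354 kept direction and side of the threshold, 37 turned direction, 18 newly passed an unadjusted p of 0.05 and 19 no longer did. Depth limits weak peaks, and 255 of 381 could be tested.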

Other observations

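WT4 and WT5 both lay below or both lay above the other 8 mice at 5 of 70 peaks with at least 50 counts among the 100 peaks just before the locus, and at 7 of 61 among the 100 peaks just after it. Over the whole data this held at 13287 of 146011 peaks, so both flanks were near that share. Between neighbouring tested peaks of the locus, the log2 fold changes of KO over WT had a Pearson r of 0.229 over 254 pairs, as a description across peaks that share the same mice. The pairs include the last stretch, where WT4 and WT5 were the lowest or highest mice at many peaks. No such r was computed outside the locus, so whether it is particular to the locus is not known. All tested peaks were split into 4 groups at the quartiles of their mean CPM, which held 49, 51, 57 and 98 locus peaks from the weakest to the strongest. The locus peaks in them had median log2 fold changes of 0.08, 0.03, -0.02 and -0.01, beside 0.17, 0.07, -0.04 and -0.08 among all peaks tested.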
